A study of Mus musculus with 6 samples.

Results

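The chemoattractant receptors of macrophages described here are *Ccr1*, *Ccr2*, *Ccr7*, *Ccrl2*, *Cx3cr1*, *Cxcr4*, *C3ar1*, *Fpr1*, and *Fpr2*. They were chosen by name from the gene names on the array, with earlier results of these data known, and make up 9 of its 34787 gene names. The cells were murine macrophages derived from bone marrow, grown for 7 days in L929 conditioned medium from wild type female C57/B6 mice aged 6 to 8 weeks according to the labels. There were 3 groups, with 2 samples in each. One group was untreated. The second received LPS, a bacterial cell wall component sensed by TLR4, for 4 h. The last was pretreated for 30 min with 10 μM HBX41108, a small molecule that inhibits the catalytic activity of the deubiquitinase USP7, and was then given LPS in the same way (LPS+USP7i). The LPS dose is 100 ng/ml in the design text of the series and 100 ng/μl in the protocol of the samples, and the study's methods give a different range of mouse ages. No source states whether cells given LPS alone also received the inhibitor's solvent. The 2 samples of a group are described as independent experiments, and separate animals are not mentioned. All 6 arrays lay on 1 slide, where 2 numbers give the position of an array. The second number was 1 for untreated cells, 2 for LPS, and 4 for LPS+USP7i, so slide position and treatment cannot be told apart.

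Chemoattractant receptors are G protein–coupled receptors through which leukocytes sense a gradient of a chemokine, a complement fragment, or a formylated peptide and move along it. On binding they signal mainly through inhibitory G proteins, after which receptor kinases and arrestins silence them. Macrophages change the receptors they carry as they are activated, which sets whether they are drawn to a tissue, held there, or sent on to lymph nodes.

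The promoter sequences of the 6 receptors that passed the threshold after LPS come first, because 3 of them rose together and 3 fell together. RefSeq (GRCm38.p6) gave promoter windows for 8 of the 9 receptors, at 10 start sites in all. Each window runs from 250 bases before the start site to 50 bases after it and is written 5′ to 3′ on the strand of the gene. *Ccrl2* (chr9:111057469-111057768, minus strand, the first of its 3 start sites), *Fpr1* (chr17:17883890-17884189, minus strand), and *Fpr2* (chr17:17887574-17887873, plus strand) were raised by LPS. *Ccr2* (chr9:124101933-124102232, plus strand), *Cx3cr1* (chr9:120068247-120068546, minus strand), and *Cxcr4* (chr1:128592250-128592549, minus strand) were lowered. Capitals mark a match to one of the motifs described after the sequences.
Ccrl2: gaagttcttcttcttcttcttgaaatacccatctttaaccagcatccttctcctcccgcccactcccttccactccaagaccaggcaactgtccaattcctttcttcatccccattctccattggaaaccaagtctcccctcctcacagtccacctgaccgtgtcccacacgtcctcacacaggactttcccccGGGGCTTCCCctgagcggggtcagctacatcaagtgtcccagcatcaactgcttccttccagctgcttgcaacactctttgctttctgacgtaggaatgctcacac
Fpr1: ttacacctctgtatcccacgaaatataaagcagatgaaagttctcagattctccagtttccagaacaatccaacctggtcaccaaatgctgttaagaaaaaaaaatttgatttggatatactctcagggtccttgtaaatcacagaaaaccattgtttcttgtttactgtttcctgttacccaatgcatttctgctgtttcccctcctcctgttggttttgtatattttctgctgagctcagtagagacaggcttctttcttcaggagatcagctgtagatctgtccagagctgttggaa
Fpr2: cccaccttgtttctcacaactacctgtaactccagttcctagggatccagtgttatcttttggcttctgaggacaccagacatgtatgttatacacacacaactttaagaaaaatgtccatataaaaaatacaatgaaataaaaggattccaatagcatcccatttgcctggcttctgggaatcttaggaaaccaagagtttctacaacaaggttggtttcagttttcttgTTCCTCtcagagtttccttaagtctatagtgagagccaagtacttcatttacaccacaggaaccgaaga
Ccr2: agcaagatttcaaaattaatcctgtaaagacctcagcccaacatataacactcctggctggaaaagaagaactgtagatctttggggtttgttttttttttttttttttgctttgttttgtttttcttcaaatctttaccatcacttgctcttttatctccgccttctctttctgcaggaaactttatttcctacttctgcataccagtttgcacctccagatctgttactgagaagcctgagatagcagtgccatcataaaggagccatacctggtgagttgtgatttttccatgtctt
Cx3cr1: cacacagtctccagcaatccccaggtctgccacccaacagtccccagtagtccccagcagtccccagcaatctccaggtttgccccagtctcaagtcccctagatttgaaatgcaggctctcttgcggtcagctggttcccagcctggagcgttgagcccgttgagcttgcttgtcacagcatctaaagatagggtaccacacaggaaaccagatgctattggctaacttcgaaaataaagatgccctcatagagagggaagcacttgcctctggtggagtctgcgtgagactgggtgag
Cxcr4: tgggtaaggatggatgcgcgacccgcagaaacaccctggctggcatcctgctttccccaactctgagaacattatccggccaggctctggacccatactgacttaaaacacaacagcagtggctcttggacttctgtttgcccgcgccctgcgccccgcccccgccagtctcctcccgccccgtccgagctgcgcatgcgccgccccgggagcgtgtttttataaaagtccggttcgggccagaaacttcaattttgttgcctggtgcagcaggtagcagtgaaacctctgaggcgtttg

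These windows were searched on both strands for the NF-κB consensus, the AP-1 motif TGANTCA, the PU.1 core GAGGAA, and the core of the interferon-stimulated response element, GAAANNGAAA. Of all 32851 promoter windows in the table, 4.51% held the NF-κB consensus, 7.81% the AP-1 motif, 28.3% the PU.1 core, and 3.44% the response element core. The *Ccrl2* window held an NF-κB match, GGGGCTTCCC, which begins 56 bases before the start site, while the windows of its other start sites held no match. In the *Fpr2* window the PU.1 core lay on the reverse strand, as TTCCTC, 19 bases before the start site. None of the 4 motifs was found in the windows of *Fpr1*, *Ccr2*, *Cx3cr1*, or *Cxcr4*. Among the receptors not printed, *Ccr1* held the PU.1 core 129 bases before its start and *C3ar1* held the AP-1 motif as TGACTCA 22 bases before its start. No match overlapped another. The windows also differed in base composition, from 38.0% G and C in *Ccr2* and 39.3% in *Fpr2* to 59.3% in *Cxcr4*, where the median of all windows was 52.7%. *Cxcr4* had 20 CpG dinucleotides in its window against a median of 7, and *Ccr2*, *Fpr1*, and *Fpr2* had 1 each. The start sites of *Fpr1* and *Fpr2* lie 3885 bases apart on opposite strands and point away from each other. These matches describe the sequence only.

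Signals are given as log2 of the background-corrected spot signal after quantile normalization between arrays. Each receptor had 1 probe, apart from *Cx3cr1* with 2, which makes 10 probes of 1 spot each. Of the 9 receptors, 8 were well above background on all 6 arrays, and *Ccr1* was so on 1 array. A receptor counted as raised or lowered when its adjusted p from limma, corrected by the Benjamini-Hochberg method over 55680 probes, was under 0.05. Such p values measure the spread between these samples, and 2 samples per group limit the precision of every value. An exact permutation test of 2 samples against 2 has no two-sided p smaller than 0.333.

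LPS raised 3 of the 9 receptors, *Ccrl2*, *Fpr1*, and *Fpr2*, where 7.98% of all 34786 genes tested were raised. It lowered 3, *Ccr2*, *Cx3cr1*, and *Cxcr4*, where 12.8% of all genes were lowered. The 3 others, *Ccr1*, *Ccr7*, and *C3ar1*, did not pass. Adding the inhibitor to LPS lowered 3 receptors, *Ccr2*, *Cx3cr1*, and *Fpr2*, against 4.27% of all genes. By limma 0 receptors were raised by the inhibitor, against 5.52% of all genes. At an unadjusted p under 0.05, 1 receptor was higher, *Cxcr4*, and 5 were lower, where 4989 and 4060 of 34786 genes were. LPS+USP7i cells differed from untreated cells by 1 raised receptor, *Ccrl2*, against 6.16% of all genes, and by 2 lowered receptors, *Ccr2* and *Cx3cr1*, against 8.71%. The median log2 difference of the 9 receptors was −0.63 for LPS minus untreated, −0.57 for LPS+USP7i minus LPS, and −0.42 for LPS+USP7i minus untreated. Over all genes the median was 0.00 in each, and over those well above background on all 6 arrays it was −0.18, 0.055, and −0.082. The receptors went both ways in each comparison, so these medians are the values of *C3ar1* and *Ccr7*, which did not pass. Shares are higher among the 15612 genes well above background on all 6 arrays, as 8 of the receptors were, with 14.1% raised and 23.9% lowered by LPS, 9.74% and 7.42% by the inhibitor, and 10.9% and 16.3% in LPS+USP7i against untreated cells. They also depend on the scaling. When arrays were scaled to their 75th percentile instead, LPS raised 34.9% of all genes and lowered 11.6% (12150 and 4048, against 2775 and 4443), while the receptors stayed at 3 and 3, so that the raised receptors are no larger a share than all genes. LPS+USP7i against untreated cells then gave 12182 raised and 3354 lowered genes, against 2144 and 3031. The 3 comparisons share arrays, so a low or high array of one group enters 2 of them.

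**Figure D1:**
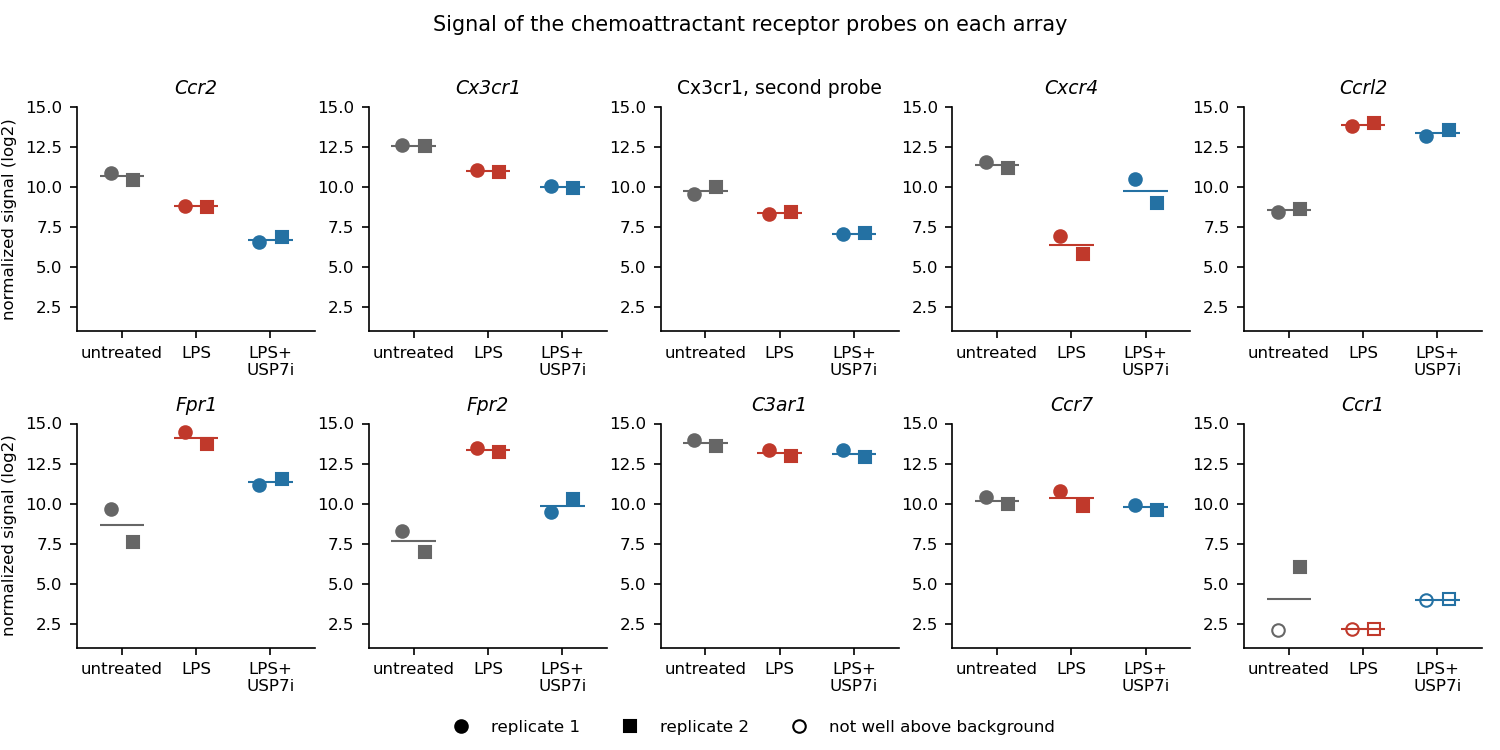
Normalized signal (log2) of each receptor probe on each array, by group, with circles for replicate 1, squares for replicate 2, a line at the group mean, and open symbols where the spot was not well above background. *Ccr2* and both *Cx3cr1* probes step down from untreated to LPS to LPS+USP7i, *Cxcr4* is lowest with LPS (6.94 and 5.81), and *Fpr1* and *Fpr2* are highest with LPS.

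*Ccr2*, the receptor that brings monocytes out of the bone marrow and into inflamed tissue, gave signals of 10.90 and 10.43 untreated, 8.84 and 8.76 after LPS, and 6.56 and 6.85 after LPS+USP7i. Signals were highest in untreated cells, intermediate with LPS, and lowest with the inhibitor, and no 2 groups overlapped. Its probe lies at chr9:124022948-124023007 of mm9, the build of the array files. LPS lowered *Ccr2* 3.63-fold, as it fell by 1.86 (SE 0.20, adjusted p = 0.0108) on the log2 scale. With the inhibitor it fell by a further 2.10 (SE 0.20, adjusted p = 0.0193), which is 4.28-fold. Against untreated cells the LPS+USP7i cells were 15.6-fold lower (adjusted p = 0.00563), a log2 difference of −3.96 that ran from −4.19 to −3.22 over the alternatives. In these bulk samples, fewer cells that carry a receptor and less RNA per cell cannot be told apart. The LPS call was lost without LPS replicate 1 (adjusted p = 0.0586) or LPS replicate 2 (0.0575), within a range of 0.000538 to 0.0586 over 14 alternatives. The inhibitor call was lost without LPS replicate 1 (0.0830) or 2 (0.0737) or LPS+USP7i replicate 1 (0.0669), within a range of 0.00215 to 0.0830. It was also lost in a fit of only the 2 groups and without untreated replicate 1 or 2 (0.0568 each). These 3 fits rest on the same 4 arrays for their spread, and 0 of all genes passed in any of them in this comparison, so such a loss is not particular to a receptor. The log2 difference stayed between −2.25 and −1.50 in all 14 alternatives.

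Of the chemokines that act on *Ccr2*, 3 went the other way after LPS. *Ccl2*, its main ligand, gave 11.90 and 14.02 untreated, 17.40 and 18.16 after LPS, and 16.71 and 17.29 after LPS+USP7i. It rose by 4.82 with LPS (SE 0.82, adjusted p = 0.0294), and the difference made by the inhibitor was −0.78 (SE 0.82, adjusted p = 0.672). *Ccl7* rose by 5.65 (SE 0.84, adjusted p = 0.0212) and *Ccl12* by 7.57 (SE 0.26, adjusted p = 0.00261), a 190.0-fold increase. With the inhibitor *Ccl12* fell by 1.83 (SE 0.26, adjusted p = 0.0354), while *Ccl7* differed by −0.77 (adjusted p = 0.689). *Ccl8* passed in neither comparison, with differences of 0.52 (adjusted p = 0.0879) and −0.33 (adjusted p = 0.286).

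*Cx3cr1*, the fractalkine receptor that marks patrolling monocytes and many resident macrophages, gave signals of 12.62 and 12.55 untreated, 11.07 and 10.92 after LPS, and 10.05 and 9.96 after LPS+USP7i at the probe that represents the gene (chr9:119957811-119957870, mm9). The groups lay in the same order as for *Ccr2*, highest in untreated cells, and none overlapped. It fell by 1.59 (SE 0.087, adjusted p = 0.00373) with LPS, 3.02-fold, and by 0.99 (SE 0.087, adjusted p = 0.0171) with the inhibitor, 1.98-fold. Against untreated cells the fall was 2.58 (adjusted p = 0.00399), and this call and the LPS call were made in all 14 alternatives. The second probe (chr9:119959018-119959077, mm9) gave 9.57 and 9.98 untreated, 8.33 and 8.45 after LPS, and 7.04 and 7.13 after LPS+USP7i. It showed the same order with no overlap. At this probe *Cx3cr1* fell by 1.38 (SE 0.16, adjusted p = 0.0122) with LPS and by 1.30 (SE 0.16, adjusted p = 0.0273) with the inhibitor. The inhibitor call at the first of these probes was lost without LPS replicate 1 (adjusted p = 0.0526) or LPS+USP7i replicate 1 (0.0503), within a range of 0.00138 to 0.0655. In the fit of 2 groups and without untreated replicate 1 or 2 (0.0655 each), where no gene passed, the difference was still −0.99.

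Fractalkine itself, *Cx3cl1*, is the ligand of *Cx3cr1*. Its signals were 7.41 and 7.36 untreated, 11.72 and 11.45 after LPS, and 8.26 and 8.24 after LPS+USP7i. The receptor was lowest in inhibitor-treated cells, whereas the ligand was far higher with LPS than in either other group, of which LPS+USP7i lay slightly above untreated. *Cx3cl1* rose by 4.20 (SE 0.11, adjusted p = 0.00245) with LPS and fell 10.1-fold, by 3.34 (SE 0.11, adjusted p = 0.00987), with the inhibitor. The receptor and the ligand therefore both fell with the inhibitor and moved in opposite directions with LPS.

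*Ccr1*, a receptor for inflammatory CC chemokines, gave signals of 2.11 and 6.01 untreated, 2.13 and 2.19 after LPS, and 3.96 and 4.03 after LPS+USP7i. Only untreated replicate 2 was well above background, and the untreated samples enclose all the others. No fold is given, because the bounds set by the lowest signals well above background are under 1 or both groups are below background. No difference is given here either, since the signals of all other arrays are not well above background. Those listed below with the alternatives carry no direction. Of its ligands, *Ccl3* rose by 4.50 (adjusted p = 0.00319), *Ccl5* by 5.31 (adjusted p = 0.00331), and *Ccl9* by 1.60 (adjusted p = 0.0101) with LPS, and *Ccl6* differed by −0.25 (adjusted p = 0.843). With the inhibitor *Ccl9* fell by 1.42 (adjusted p = 0.0264), and *Ccl3* (−0.89), *Ccl5* (−0.71), and *Ccl6* (0.49) did not pass (adjusted p = 0.0924, 0.223, and 0.630).

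*Cxcr4*, which holds leukocytes in the bone marrow through its ligand CXCL12, gave signals of 11.56 and 11.22 untreated, 6.94 and 5.81 after LPS, and 10.49 and 8.99 after LPS+USP7i. Both LPS samples lay below all the others, and the LPS+USP7i samples lay between the LPS and the untreated samples without overlap. *Cxcr4* fell by 5.01 (SE 0.67, adjusted p = 0.0168) with LPS, a 32.3-fold decrease, and the difference ran from −5.58 to −4.14 over the alternatives. LPS+USP7i minus LPS was 3.37 (SE 0.67), from 2.53 to 4.11 over the alternatives, and did not pass (adjusted p = 0.0662). It passed in 5 of 14 alternatives, among them normexp background correction (adjusted p = 0.0134), the authors' deposited log2 values (0.0277), dim probes left out (0.0142), and a trended prior (0.0474), and its adjusted p ranged from 0.0134 to 0.192 over the alternatives. LPS+USP7i minus untreated was −1.65 (SE 0.67, adjusted p = 0.245), or −2.40 without LPS+USP7i replicate 1 and −0.90 without LPS+USP7i replicate 2. The LPS call was lost without untreated replicate 1 (0.0893) or 2 (0.0846) and without LPS replicate 1 (0.0525) or 2 (0.0675), over a range of 0.000994 to 0.0893. The *Cxcr4* ligand *Cxcl12* exceeded background clearly on no array.

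*Ccr7*, which guides dendritic cells and some activated macrophages to lymph nodes, gave signals of 10.42 and 9.96 untreated, 10.80 and 9.87 after LPS, and 9.92 and 9.62 after LPS+USP7i. The LPS samples enclosed both untreated samples, and one of them lay between the LPS+USP7i samples. The differences were 0.15 (SE 0.38, adjusted p = 0.921) for LPS minus untreated and −0.57 (SE 0.38, adjusted p = 0.541) for LPS+USP7i minus LPS, and both depended on single arrays. The latter was −0.11 without LPS replicate 1 and −1.03 without LPS replicate 2. Its ligand *Ccl19* gave 5.03 and 4.63 untreated, 6.42 and 6.32 after LPS, and 5.56 and 4.89 after LPS+USP7i. *Ccl19* was highest in both LPS samples, and the other 2 groups overlapped. It rose by 1.55 (SE 0.28, adjusted p = 0.0345) with LPS, and the inhibitor made a difference of −1.15 (adjusted p = 0.101).

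*Ccrl2* binds the chemoattractant chemerin and presents it to neighboring cells without signaling itself. Its signals were 8.43 and 8.65 untreated, 13.80 and 14.00 after LPS, and 13.16 and 13.53 after LPS+USP7i. Both groups given LPS were far above the untreated samples, and the LPS+USP7i samples lay just below the LPS samples. *Ccrl2* rose by 5.36 (SE 0.17, adjusted p = 0.00256) with LPS, a 41.2-fold increase, and was still 28.0-fold above untreated cells with LPS+USP7i (adjusted p = 0.00437). Both calls were made in all 14 alternatives. The difference made by the inhibitor, −0.55 (SE 0.17), from −0.80 to −0.37 over the alternatives, did not pass (adjusted p = 0.167, range 0.0600 to 0.415). Chemerin, encoded by *Rarres2*, exceeded background clearly on no array.

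*Fpr1*, a receptor for formylated peptides shed by bacteria and by damaged mitochondria, gave signals of 9.68 and 7.60 untreated, 14.46 and 13.72 after LPS, and 11.13 and 11.55 after LPS+USP7i. The LPS samples were highest, the untreated samples lowest and furthest from each other, and the LPS+USP7i samples lay between them without overlap. It rose by 5.45 (SE 0.79, adjusted p = 0.0203) with LPS, a 43.6-fold increase, with 6.48 without untreated replicate 1 and 4.41 without untreated replicate 2. LPS+USP7i minus LPS was −2.75 (SE 0.79, adjusted p = 0.139) and LPS+USP7i minus untreated was 2.70 (SE 0.79, adjusted p = 0.127, from 1.66 to 3.74 over the alternatives), neither of which passed. Among 14 alternatives, the inhibitor difference passed in 2, dim probes left out (adjusted p = 0.0379) and normexp correction (0.0206), within a range of 0.0206 to 0.366. The LPS call was lost without LPS replicate 1 (0.0985) or 2 (0.0732), without LPS+USP7i replicate 1 (0.0551) or 2 (0.0550), and in the fit of 2 groups (0.0550), within a range of 0.000846 to 0.0985.

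*Fpr2*, the paralog that also takes lipid and antimicrobial peptide ligands, gave signals of 8.30 and 6.99 untreated, 13.49 and 13.20 after LPS, and 9.48 and 10.25 after LPS+USP7i. As for *Fpr1*, the LPS samples were highest and the LPS+USP7i samples lay between LPS and untreated, with no overlap. It rose by 5.70 with LPS (SE 0.55, adjusted p = 0.00836), 52.1-fold, with 6.36 without untreated replicate 1 and 5.05 without untreated replicate 2. With the inhibitor it fell 11.1-fold, by 3.48 (SE 0.55, adjusted p = 0.0419). With the replicate block this fall was as large and did not pass (adjusted p = 0.0760). LPS+USP7i minus untreated was 2.23 (SE 0.55, adjusted p = 0.0862), from 1.57 to 2.88 over the alternatives. The inhibitor call was lost without LPS replicate 1 (0.159) or 2 (0.133) and without LPS+USP7i replicate 1 (0.142) or 2 (0.0820). It was 0.0658 without untreated replicate 1 or 2 and in the fit of 2 groups, where no gene passed. It passed in 6 of the 14 alternatives, over a range of 0.00176 to 0.159, while the log2 difference ranged from −3.86 to −3.09. The LPS call was lost only without LPS replicate 1 (0.0523, range 0.000155 to 0.0523). Ligands of *Fpr2* on the array were *Anxa1*, with differences of −0.07 for LPS minus untreated (adjusted p = 0.694) and 0.04 for LPS+USP7i minus LPS (adjusted p = 0.870), and *Camp*, with differences of 2.06 (adjusted p = 0.280) and −1.72 (adjusted p = 0.444).

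*C3ar1*, the receptor for the anaphylatoxin cut from complement C3, gave signals of 13.95 and 13.61 untreated, 13.34 and 12.97 after LPS, and 13.36 and 12.88 after LPS+USP7i. The untreated samples were slightly above the rest, and the LPS and LPS+USP7i samples overlapped. The differences were −0.63 (SE 0.25, adjusted p = 0.212) for LPS minus untreated and −0.03 (SE 0.25, adjusted p = 0.988) for LPS+USP7i minus LPS, and the former ran from −0.81 to −0.11 over the alternatives. It passed in 1 of 14 alternatives, the replicate block (adjusted p = 0.0246), though no label ties same-numbered samples to one experiment. By contrast its precursor ligand *C3* gave 14.70 and 14.12 untreated, 17.65 and 17.67 after LPS, and 15.04 and 15.36 after LPS+USP7i. *C3* was highest in the LPS samples, and LPS+USP7i lay above untreated. It rose by 3.26 (SE 0.24, adjusted p = 0.00525) with LPS and fell by 2.46 (SE 0.24, adjusted p = 0.0193) with the inhibitor.

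**Figure D2:**
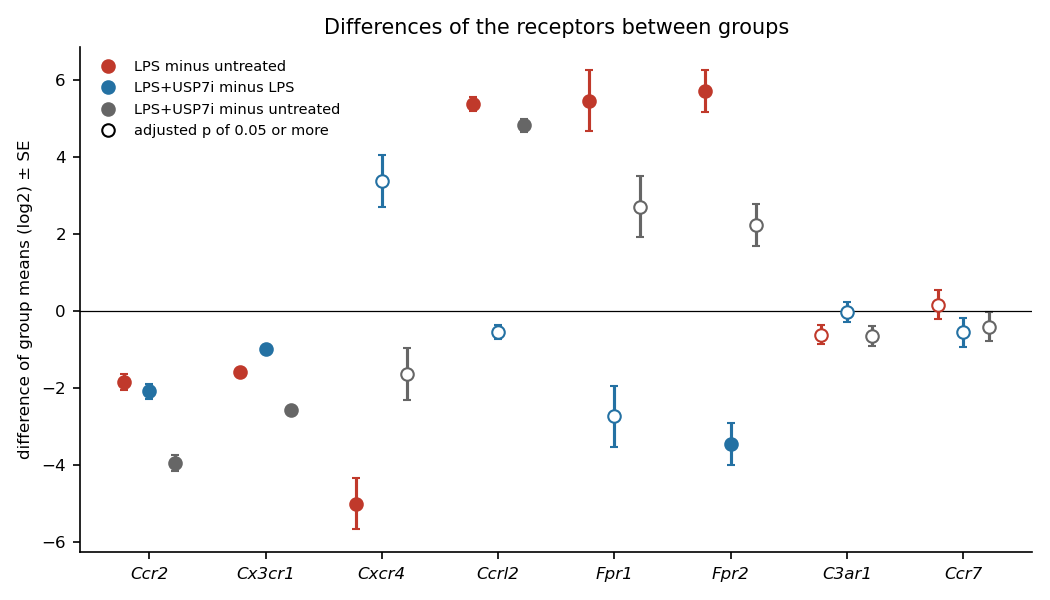
Difference of group means (log2) for each receptor well above background on all 6 arrays, with bars of 1 standard error, in the 3 comparisons; filled symbols passed an adjusted p of 0.05. *Fpr2*, *Fpr1*, and *Ccrl2* have the largest increases with LPS (5.70, 5.45, and 5.36, too close to rank) and *Cxcr4* the largest decrease (−5.01), while *C3ar1* and *Ccr7* have open symbols throughout.

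Of the 15 ligands found on the array, out of 16 listed, LPS raised 9 and lowered 0 by limma. Of all genes 7.98% and 12.8% passed, and 14.1% and 23.9% of those well above background on all 6 arrays, as 13 of the ligands were. At an unadjusted p under 0.05, 11 ligands were higher and 0 lower, where 4350 and 7156 of 34786 genes were. The median log2 difference of the ligands was 2.06 against 0.00 over all genes. The inhibitor lowered 4, *Ccl12*, *Ccl9*, *Cx3cl1*, and *C3*, against 4.27% of all genes and 7.42% of those well above background. It raised 0, against 5.52% and 9.74%, with a median of −0.78. At an unadjusted p under 0.05, 6 were lower and 0 higher, where 4060 and 4989 of 34786 genes were. *Ccl12* acts on *Ccr2*, *Ccl9* on *Ccr1*, *Cx3cl1* on *Cx3cr1*, and the product of *C3* on *C3ar1*. The other ligands of *Ccr2* and *Ccr1* did not pass in that comparison, nor did those of *Fpr2*, which fell itself.

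**Figure D3:**
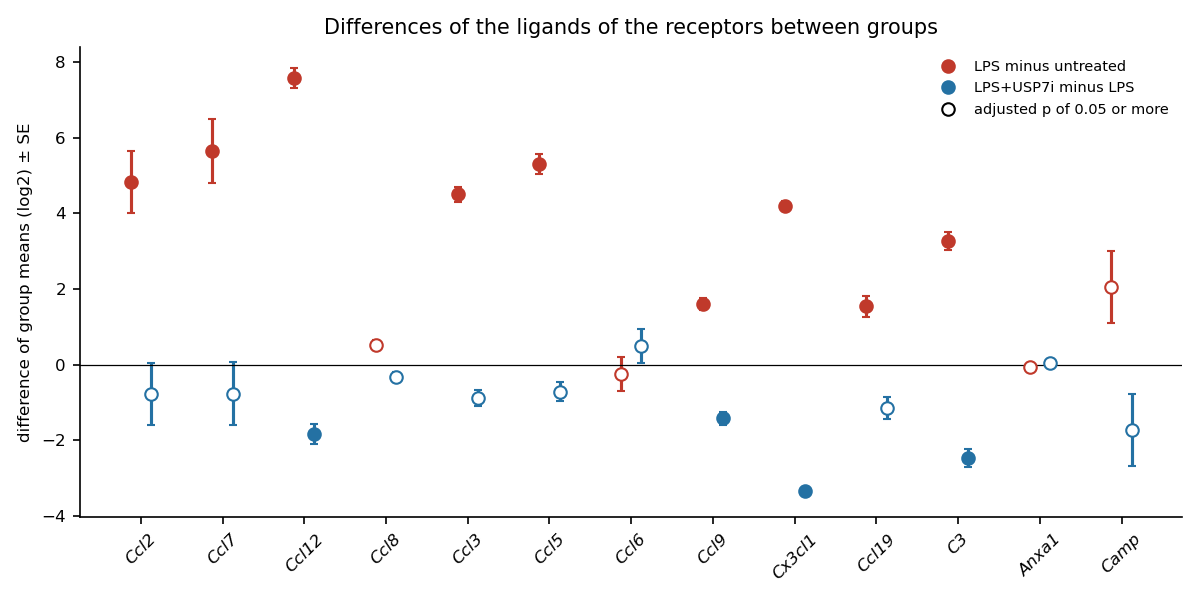
Difference of group means (log2) for the 13 ligands well above background on all 6 arrays, with bars of 1 standard error, for LPS minus untreated and LPS+USP7i minus LPS; filled symbols passed an adjusted p of 0.05. *Ccl12* rose most with LPS (7.57), and *Cx3cl1* fell most with the inhibitor (by 3.34).

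Other receptors of the same families offer a comparison for the 9. Of 28 listed, 27 were found on the array. LPS raised 7 and lowered 2, against 7.98% and 12.8% of all genes, and 4 of these 9 exceeded background clearly on no array. *Fpr-rs6*, a relative of *Fpr1* and *Fpr2*, gave 3.14 and 2.14 untreated, 7.30 and 7.07 after LPS, and 2.83 and 3.39 after LPS+USP7i. It was well above background only in the LPS samples, as a rise of at least 9.68-fold with LPS (adjusted p = 0.00759) and, once the inhibitor was added, a fall of at least 7.49-fold (adjusted p = 0.0208). In such bounds, each array's dimmest signal that still counts as well above background stands in for the dim group, unless the gene's own signal exceeds it. *Ccr9* was at least 5.43-fold higher with LPS (adjusted p = 0.0224), *Ccr3* rose by 1.58 (SE 0.16, adjusted p = 0.00875), and *Fpr-rs3* passed (adjusted p = 0.0296) without being well above background anywhere. The inhibitor raised 1 of the 27, *Ptafr*, the receptor for platelet-activating factor, by 0.59 (SE 0.085, adjusted p = 0.0353), against 5.52% of all genes, and lowered 3, against 4.27%, *Fpr-rs6* and the dim *Cmklr1* and *Fpr3* (adjusted p = 0.0166 and 0.0159). LPS+USP7i cells differed from untreated cells by 2 raised receptors, *Ccr3* (by 2.09, adjusted p = 0.00813) and *Ptafr* (by 1.95, adjusted p = 0.00502), and 1 lowered, *Cmklr1* (adjusted p = 0.0266), where 6.16% and 8.71% of all genes passed. Only 7 to 12 of the 27 were well above background on an array, so their median is not given.

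Receptors on one chromosome did not all move the same way. Of the 9, 4 lie on chromosome 9, where the probes of *Ccr1* and *Ccr2* are 145.2 kb apart and that of *Ccr3* lies between them. *Ccr3* was raised by LPS, *Ccr2* was lowered, and *Ccr1* was mostly below background. *Ccrl2* and *Cx3cr1* lie on the same chromosome and moved in opposite directions with LPS. The probes of *Fpr1* and *Fpr2* on chromosome 17 are 16.9 kb apart, and both genes were raised.

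Among 28 genes of G protein signaling and receptor desensitization, all well above background on all 6 arrays, LPS raised 6 and lowered 9, where 14.1% and 23.9% of all genes so measured passed. The inhibitor lowered 6, against 7.42%, and raised 0 by limma, against 9.74%. At an unadjusted p under 0.05, 2 were higher and 7 lower, where 3812 and 3029 of 15612 genes so measured were. *Arrb1*, an arrestin that turns receptors off, fell by 2.09 (SE 0.11, adjusted p = 0.00365) with LPS, while *Rgs16* (by 3.72, adjusted p = 0.0290) and *Rgs1* (by 1.56, adjusted p = 0.0289) rose. They belong to 6 listed regulators that shorten G protein signals, of which LPS raised 3 and lowered 2. *Grk3*, a receptor kinase, gave 7.35 and 6.78 untreated, 9.11 and 8.84 after LPS, and 7.10 and 6.75 after LPS+USP7i. It was highest with LPS, as it rose by 1.91 (SE 0.26, adjusted p = 0.0178) and fell by 2.05 (SE 0.26, adjusted p = 0.0289) with the inhibitor. *Rgs14* (by 1.64, adjusted p = 0.0167), *Plcb3* (by 1.44, adjusted p = 0.0187), and *Pik3r5* (by 1.14, adjusted p = 0.0212) also fell with the inhibitor. Against untreated cells, 14 of the 28 fell and 1 rose in LPS+USP7i cells, against 16.3% and 10.9% of all genes so measured, with *Rgs18* (fell by 1.79, adjusted p = 0.0365), *Arrb1* (fell by 1.54, adjusted p = 0.00790), *Grk5* (rose by 1.53, adjusted p = 0.0455), and *Grk6* (fell by 1.48, adjusted p = 0.00835) the largest.

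The genes whose signal over the 6 arrays was most like that of a receptor were found among 11655 genes, by the root mean square of the differences between log2 values centred on each gene's mean. *C3ar1* had the closest neighbors, *Tmem175* (0.038) and *Cyp4f16* (0.045). *Ccr7* was followed by *Pprc1* (0.118) and *H2-Eb1* (0.12), and *Cx3cr1* by *H1f4* (0.153) and *Espl1* (0.193). *Ccrl2* lay near *Csf1* (0.194) and *Tnfaip3* (0.214), and *Fpr2* near *Iigp1* (0.244) and *Calhm6* (0.293). The others had no gene as close, with *Trp53i11* (0.389) and *Gbp6* (0.399) for *Fpr1*, *Slc26a11* (0.411) and *Irf2bp2* (0.457) for *Cxcr4*, and *Nfatc2* (0.433) and *H1f5* (0.453) for *Ccr2*.

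Markers of cell types were read beside the receptors, and their counts stand against 7.98% of all genes raised and 12.8% lowered by LPS, and 5.52% raised and 4.27% lowered by the inhibitor. At an unadjusted p under 0.05, LPS raised 4350 and lowered 7156 of 34786 genes, and the inhibitor raised 4989 and lowered 4060. Among genes well above background on all 6 arrays, LPS raised 14.1% and lowered 23.9%, and the inhibitor raised 9.74% and lowered 7.42%. All 8 macrophage markers were well above background on every array. *Csf1r*, which had the highest signal of them on 5 of 6 arrays, gave 18.05 and 17.80 untreated, 17.68 and 17.64 after LPS, and 17.56 and 17.31 after LPS+USP7i. LPS raised *Cd14* by 1.69 (adjusted p = 0.00518) and lowered *Itgam* (fell by 0.66, adjusted p = 0.0233), and the inhibitor lowered *Fcgr1* (fell by 1.60, adjusted p = 0.0317) and *Cd14* (fell by 1.31, adjusted p = 0.0184). Neutrophils also carry *Fpr1*, *Fpr2*, and *Cxcr4*, and the summed normalized signal of 8 neutrophil markers was 9286 and 12810 untreated, 8607 and 16030 after LPS, and 11380 and 16160 after LPS+USP7i, with the highest signal from *Mmp8* on 5 of 6 arrays. This sum was higher in replicate 2 of every group, as were the single markers apart from *Ly6g* and *Mpo*, which were lower there in every group. By limma 0 of the 8 markers passed in any comparison, with 1 lower after LPS and 1 higher with the inhibitor at an unadjusted p under 0.05. Dendritic cells carry *Ccr7*: of 6 markers *Zbtb46* was at least 5.65-fold higher with LPS (adjusted p = 0.00435) and *Kmo* fell by 2.56 with the inhibitor (adjusted p = 0.0299), while *Flt3* and *Xcr1* exceeded background clearly on no array. Their summed signal was 3686 and 7654 untreated, 3520 and 6343 after LPS, and 4562 and 6203 after LPS+USP7i, with the highest signal from *Itgax*. Of 5 T cell markers *Cd3e* had the highest signal on 4 arrays and *Lck* on both LPS arrays, and *Lck* passed, with a rise of 4.23 (adjusted p = 0.00331) after LPS and a fall of 2.47 (adjusted p = 0.0161) with the inhibitor. Of 5 B cell markers, led by *Cd79b*, *Pax5* was at least 1.39-fold higher with the inhibitor (adjusted p = 0.0244). Of 5 fibroblast markers, with *Dcn* highest on 5 of 6 arrays, 0 passed, with 1 higher after LPS and 1 lower with the inhibitor at an unadjusted p under 0.05, and *Col1a1*, *Col3a1*, and *Pdgfra* exceeded background clearly on no array. The part of other cells in the receptor signals was not tested.

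**Figure D4:**
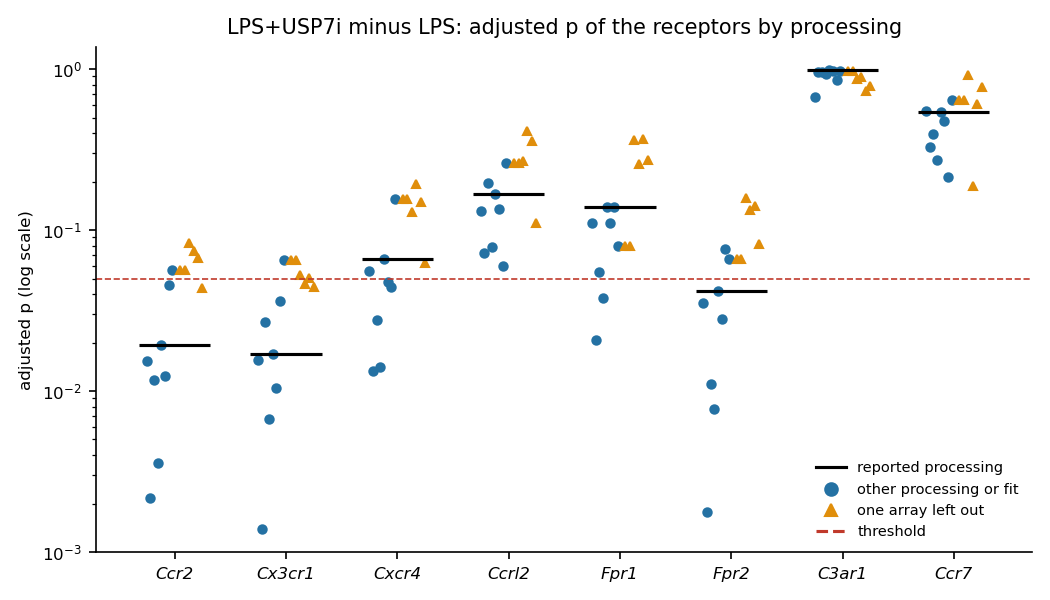
Adjusted p (log scale) of LPS+USP7i minus LPS for each receptor well above background, with a black line for the reported processing, circles for other processing or fits, triangles for fits with one array left out, and a dashed line at 0.05. The reported values of *Ccr2* (0.0193), *Cx3cr1* (0.0171), and *Fpr2* (0.0419) lie below the line and that of *Cxcr4* (0.0662) just above it, and most triangles lie above it.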

How the data were processed

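RNA of 6 samples was labeled with Cy3 and hybridized to 1-color Agilent mouse arrays. The authors deposited scanner output, whose spot intensity values are corrected for background by Feature Extraction 10.7.3.1, along with their own limma table of quantile-normalized log2 values. Here the log2 processed signal of 59305 noncontrol spots was quantile-normalized, outlier spots were set to missing, and the spots of each probe were averaged. One linear model of the 3 groups was fitted with limma 3.58.1 in R 4.3.3 and checked on simulated data. The simulated noise was independent between arrays, and its spread varied less from probe to probe than in these data. The check therefore does not cover deviations shared between samples or the wider range of spreads. A gene was represented by its probe with the highest mean signal, and all receptor probes are reported. Every ligand is named, as are, of each other list, up to 4 genes with the largest differences past the threshold and the brightest cell type marker. The members and lists were chosen with earlier results of these data known. Alternatives were 75th percentile scaling, normexp with an offset of 50, the deposited table, a trended prior, a filter on dim probes, outlier spots retained, fits of 2 groups, a replicate block, each array left out, any probe of a gene, and a minimum log2 difference of 1.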

Additional observations from a re-analysis of the deposited data

How the results depend on the processing

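Every receptor call of the reported processing kept its direction under all alternatives. *Ccr1*, not called there, passed in opposite directions in LPS+USP7i against untreated cells, without untreated replicate 1 (−2.01) and without untreated replicate 2 (1.88). Receptors raised by LPS stayed at 3 in every alternative fitted to all 6 arrays and were 2 in the fit of 2 groups. Both they and those lowered by LPS (3) became as few as 1 with single arrays left out (1 to 3 each). The 3 receptors lowered by the inhibitor became 4 with normexp and with dim probes left out, *Fpr1* added, and 2 at a log2 difference of at least 1. They became 0 in the fit of 2 groups, where 0 of all genes passed in either direction (4330 higher and 3674 lower at an unadjusted p under 0.05), and 0 to 2 with single arrays left out, of which the fits without an untreated array also passed 0 of all genes. The receptors raised by the inhibitor went from 0 to 1, *Cxcr4*, with normexp, the deposited table, dim probes left out, and the trended prior. Those raised in LPS+USP7i against untreated cells went from 1 to 3, *Fpr1* and *Fpr2* added, with 75th percentile scaling, normexp, the deposited table, and dim probes left out. With single arrays left out, only *Ccr1* was added in that comparison, to those raised without untreated replicate 2 and to those lowered without untreated replicate 1. In LPS minus untreated, the receptors lowered without untreated replicate 1 included *Ccr1* (−3.85) in place of *Cxcr4* (−4.84). Where dim probes were left out, fewer genes were tested (18327); for the others the cause was not tested. The scaling moved the median of all genes by 0.40 for LPS minus untreated and 0.44 for LPS+USP7i minus untreated, less than any receptor difference that passed.

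Signs turned only for differences that had not passed with all arrays, and the cause was not tested. For *Ccr1*, at background on all but 1 array so that its signs carry no direction, LPS+USP7i minus untreated became 0.33 with 75th percentile scaling, 0.09 with the deposited table, and 1.88 without untreated replicate 2, where LPS minus untreated became 0.042; without untreated replicate 1 they were −2.01 and −3.85. For *Ccr7*, LPS minus untreated became −0.08 without untreated replicate 2, −0.31 without LPS replicate 1, and 0.61 without LPS replicate 2. For *C3ar1*, LPS+USP7i minus LPS became 0.15 without LPS replicate 1, 0.21 without LPS+USP7i replicate 2, and −0.27 without LPS+USP7i replicate 1.

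Same-numbered samples share a replicate number and the first number of their slide position, and no label ties them to one experiment. Across 20705 probes the deviations of same-numbered samples correlated at 0.47, 0.40, and 0.42 between groups. With the replicate block, receptors raised by the inhibitor went from 0 to 1 (*Cxcr4*, adjusted p = 0.0442) and those it lowered from 3 to 2 (*Fpr2*, 0.0760), receptors lowered by LPS from 3 to 4 (*C3ar1*, 0.0246), and those lowered in LPS+USP7i against untreated cells from 2 to 3 (*C3ar1*, 0.0293). Signal over background limits *Ccr1*, and fits with an array left out assume that the lone sample varies like the other groups.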
